A study of Mus musculus with 15 samples.

Results

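Genes that glucocorticoids induce and the glucocorticoid receptor gene itself were followed in mouse brain cortex before, during and after the removal of microglia. The 7 induced genes were Tsc22d3, Cdkn1a, Map3k6, Sgk1, Fkbp5, Nfkbia and Zbtb16, and the receptor gene was Nr3c1. These 8 genes are known glucocorticoid targets and the receptor, and they are 8 of the 53278 genes in the deposited table. They and the other gene lists were chosen with earlier results of these data known, so that their counts are descriptions. All 8 passed the filter on low counts, which kept 18369 genes.

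The study used male C57BL/6J mice aged 10 to 20 weeks, 5 mice per group and 1 cortex library per mouse, with no transgene or deletion named in any group. Control mice ate control food. Depletion mice ate food with PLX3397, an oral inhibitor of the CSF1R kinase on which microglia depend for survival, for 9 days. Repopulation mice had the drug for 9 days and were returned to control food for another 9 days, so that they were sampled later in the protocol than depletion mice. PLX3397 also inhibits other kinases, among them KIT and FLT3, and acts on the whole animal, so that a group is not defined by microglia alone. The labels give no hour of death, no stress or hormone measurement and no batch.

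Glucocorticoids, corticosterone in mice, are steroid hormones that the adrenal gland releases with the daily rhythm and under stress. They bind the receptor NR3C1, which is held in the cytoplasm by HSP90 and its co-chaperones, then enters the nucleus and binds DNA as a dimer at paired hexamers or acts through other factors. Its targets include genes that limit inflammation, handle salt and glucose, stop the cell cycle and feed back on the receptor itself, and in brain they are used as readouts of hormone exposure.

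Total counts ran from 23413551 to 48617851 per library, the deepest being control 1, and the members' counts ran from 80 reads for Map3k6 to 6037 for Nr3c1. Microglial markers matched the labels. Csf1r, the target of the drug, was at 84.9 CPM (the count scaled to the TMM-adjusted library total) in control, 0.215 in depletion and 105 in repopulation, and the 12 microglial markers summed to 329 to 364, 14.2 to 18.4 and 355 to 404 CPM. The cortical label was matched by neuronal markers, which summed to 2260 to 2510 CPM over all libraries. Choroid plexus markers, foreign to cortex, summed to 83.9, 213, 112, 16.5 and 13.5 CPM in depletion mice 1 to 5, against 8.58 to 24.1 CPM in control. They reached 548 CPM in repopulation 4, against 8.52 to 14.3 CPM in the other repopulation mice. No marker of any list was at 0 counts in a whole group.

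Promoter sequences show how differently the receptor's motif is placed among these genes. RefSeq start sites on the GRCm38.p6 build were found for 6 of the 8 members, 14 sites in all, and the 250 bases before each were searched on both strands. The receptor hexamer AGAACA was present before 4 of the 14 sites (28.6%), 3 of them in Sgk1 and 1 in Tsc22d3, against 16% of 32536 promoter windows of the same length. A full palindrome, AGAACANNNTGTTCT, was present before 1 site, in Sgk1, and before 3 of the 32536 windows in all (0.00922%). The looser core ACANNNTGT, which the palindrome also contains, was present before 3 sites (21.4%), 2 in Sgk1 and 1 in Map3k6, against 5.82% of all windows. Sites of 1 gene are not independent, and Sgk1 and Tsc22d3 each have several. By gene, the hexamer was present in 2 of the 6 members and the core in 2. No hexamer, palindrome or core was found in the windows of Cdkn1a, Fkbp5 or Nfkbia, which says nothing of sites farther away.

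These sequences are printed 5′ to 3′ on the strand of the gene because they hold the matches, with the matches in capitals. The Sgk1 window lies inside the annotated gene body before an inner start site, chr10:21993640-21993889 on the plus strand, and carries a single hexamer, then the palindrome beginning 189 bases before the start. The Tsc22d3 stretch, chrX:140600660-140600772 on the minus strand, is the part of its outermost window outside annotated exons. The Map3k6 window is chr4:133240568-133240817 on the plus strand.
Sgk1: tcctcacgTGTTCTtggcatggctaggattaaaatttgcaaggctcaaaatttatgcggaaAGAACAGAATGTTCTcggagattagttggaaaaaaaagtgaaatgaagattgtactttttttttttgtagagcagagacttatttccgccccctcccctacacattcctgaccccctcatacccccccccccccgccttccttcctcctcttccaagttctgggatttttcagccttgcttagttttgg
Tsc22d3: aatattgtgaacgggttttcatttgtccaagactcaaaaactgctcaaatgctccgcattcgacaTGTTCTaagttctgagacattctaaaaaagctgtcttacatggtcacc
Map3k6: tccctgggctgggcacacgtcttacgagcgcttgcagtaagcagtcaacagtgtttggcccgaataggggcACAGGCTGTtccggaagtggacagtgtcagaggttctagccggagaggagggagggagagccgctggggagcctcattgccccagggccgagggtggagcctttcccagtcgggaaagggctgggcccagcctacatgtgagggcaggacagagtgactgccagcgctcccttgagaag

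Nfkbia and Cdkn1a are also known targets of other factors, and their windows are shown for that reason, with motifs chosen after the sequences had been seen. Nfkbia encodes the NF-kappa B inhibitor that NF-kappa B itself induces, and its window, chr12:55492648-55492897 on the minus strand, holds the kappa B consensus (capitals) beginning 29 bases before the start. That consensus was present in 7.28% of all windows. Cdkn1a is a classic p53 target with 2 listed start sites. The stretch before the outer one, chr17:29090729-29090975 on the plus strand, is the part of its window outside annotated exons. It holds the p53 decamer consensus 2 times (capitals), a motif present in 7.12% of all windows. The window before the other start, at 29093769, lies wholly in annotated exons and holds 0 matches. Each motif was present before 1 of the 14 member start sites (7.14%), a share close to that of all windows. A match describes letters only and no binding was measured.
Nfkbia: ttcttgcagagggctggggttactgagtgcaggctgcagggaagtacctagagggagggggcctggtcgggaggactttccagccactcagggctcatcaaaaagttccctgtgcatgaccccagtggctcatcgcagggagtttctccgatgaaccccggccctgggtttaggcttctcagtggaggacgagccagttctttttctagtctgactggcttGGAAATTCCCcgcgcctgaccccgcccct
Cdkn1a: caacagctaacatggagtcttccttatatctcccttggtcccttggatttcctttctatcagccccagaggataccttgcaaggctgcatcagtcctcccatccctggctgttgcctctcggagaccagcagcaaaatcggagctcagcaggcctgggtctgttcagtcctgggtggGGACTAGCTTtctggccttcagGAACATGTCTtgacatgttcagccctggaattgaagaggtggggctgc

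Across the 8 genes, no member rose in any comparison, and the members that fell were 1 in depletion, 4 after repopulation and 1 between the 2. Against control, Cdkn1a alone fell in depletion, where 8.35% of all tested genes fell and 8.19% rose (16.5% in all). From depletion to repopulation, Tsc22d3 alone fell, where 8.98% of genes fell and 7.61% rose (16.6% in all). In repopulation against control, Tsc22d3, Cdkn1a, Map3k6 and Zbtb16 fell, where 15.2% of genes fell and 13.9% rose (29.1% in all). Calls are edgeR quasi-likelihood tests with Benjamini-Hochberg adjusted p below 0.05 over 18369 genes, and changes are on the log2 scale. At an unadjusted p below 0.05, 1, 0 and 1 members were higher in these comparisons, Nr3c1 in both cases, and DESeq2 also called 0 higher in each. The median log2 change of the 8 members was -0.19 in depletion against control, -0.05 in repopulation against depletion and -0.35 in repopulation against control, beside -0.002, 0.001 and 0.007 over all genes. The first and the third comparison share the control mice, so that their values are not independent. Because the members were chosen with earlier results of these data known, their counts and medians are descriptions.

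**Figure D1:**
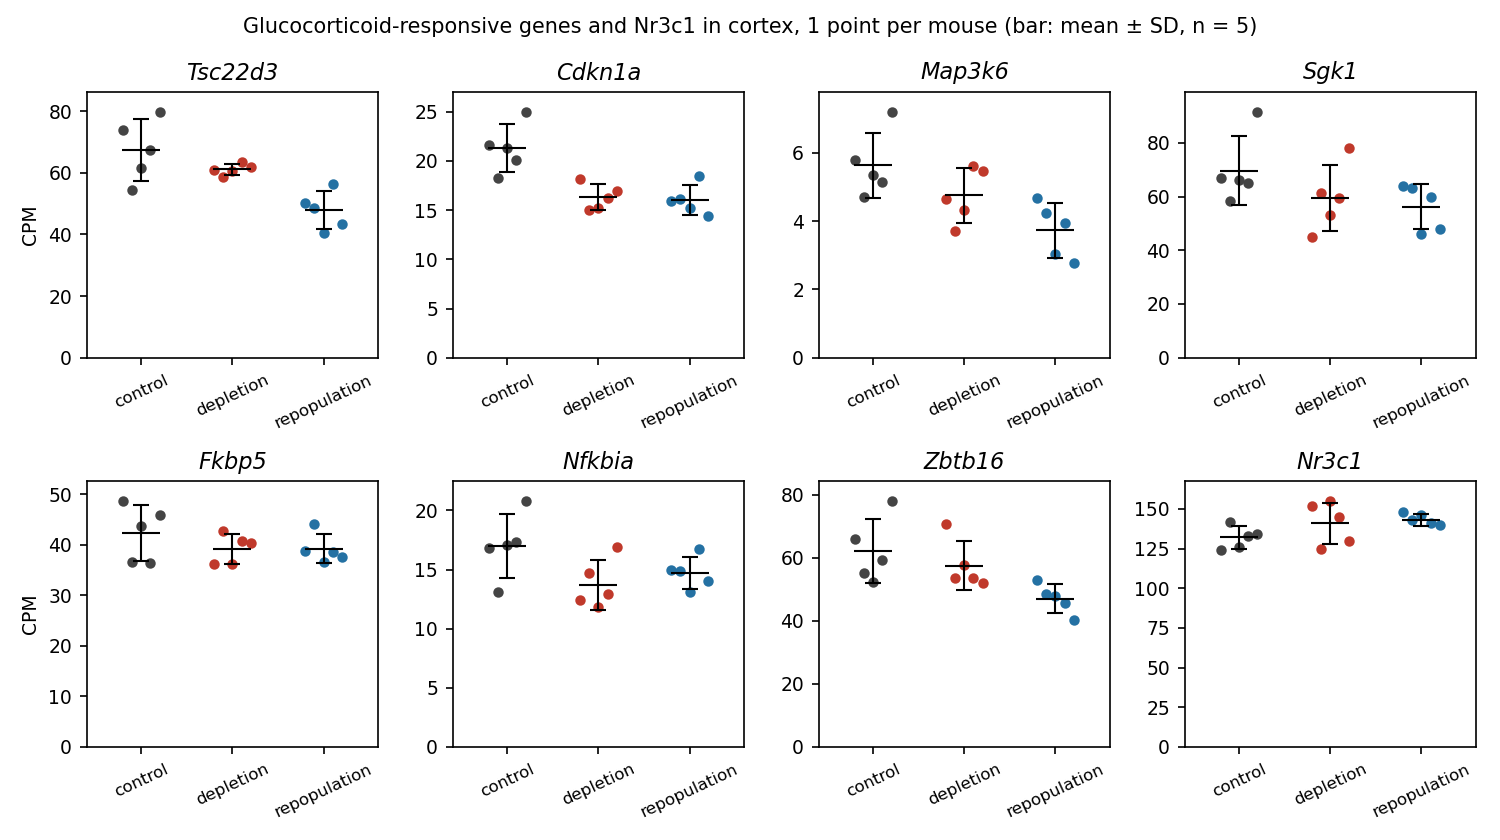
Expression of the 8 members in CPM (y axes, linear and starting at 0), 1 point per mouse, with bars for the mean ± SD of 5 mice in the control, depletion and repopulation groups. All 5 repopulation mice lie below all depletion mice for Tsc22d3 and below all control mice for Map3k6, and all 5 depletion mice lie below all control mice for Cdkn1a. The margins are 4.69 to 4.72 CPM for Map3k6 and 18.2 to 18.3 CPM for Cdkn1a. The share of all genes that separate in this way was not counted, so that separation is not read as particular to these members.

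Per kilobase of annotated exon, the order of levels in control cortex was Nr3c1 at 17.1 CPM per kb, Tsc22d3 at 15.5, Sgk1 at 14.2, Zbtb16 at 11.8, Nfkbia at 10.6, Cdkn1a at 5.99, Fkbp5 at 4.46 and Map3k6 at 1.22. With coefficients of variation of 5.42% to 18.4% between control mice, the neighbours from Nr3c1 down to Nfkbia lie within their spread of each other. Nfkbia and Cdkn1a, Cdkn1a and Fkbp5, and Fkbp5 and Map3k6 are farther apart than their spread, and Map3k6 stood below every other member in each group.

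Tsc22d3 (chrX:140539528-140600659, minus strand, GRCm38) encodes GILZ, a leucine zipper protein that binds and restrains inflammatory transcription factors. Its level was 73.9, 54.4, 61.4, 67.4 and 79.8 CPM in control mice 1 to 5, then 60.9, 58.5, 60.7, 63.4 and 62.0 CPM in depletion, then 50.1, 48.7, 40.5, 56.3 and 43.4 CPM in repopulation. Control mice were spread widely and depletion mice narrowly, with coefficients of variation of 14.9% and 3%. Repopulation mice stood below every depletion mouse, and 4 of the 5 stood below every control mouse. The means were 67.4 ± 10.0, 61.1 ± 1.84 and 47.8 ± 6.17 CPM (SD, n = 5). Between depletion and control the change of -0.14 (SE 0.10) was not called (edgeR adjusted p = 0.383), and without control 1 and control 5 together it was 0. Those mice were the highest controls for this gene, so that leaving them out lowers the control mean. Repopulation was lower than control by -0.50 (SE 0.10, edgeR adjusted p = 0.0019), to 71.0% of the control mean. Repopulation was lower than depletion by -0.35 (SE 0.10, edgeR adjusted p = 0.0278). That second call was lost without depletion 1, 3 or 4 or repopulation 3 or 5, with edgeR adjusted p up to 0.0685, and with no count filter (0.0561), while its size stayed between -0.30 and -0.42 over all alternatives.

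Zbtb16 (chr9:48654297-48836222, minus strand) encodes PLZF, a zinc finger repressor that responds strongly to glucocorticoids in many tissues. It was at 65.8, 55.3, 52.2, 59.3 and 78.0 CPM in control, 70.6, 53.6, 57.7, 53.6 and 52.0 in depletion and 52.9, 48.5, 48.0, 45.6 and 40.1 in repopulation. All but repopulation 1 were below every control mouse, and depletion mice covered the control range up to 70.6. Group means were 62.1 ± 10.2, 57.5 ± 7.64 and 47.0 ± 4.66 CPM (SD, n = 5). Zbtb16 fell in repopulation against control by 0.40 on the log2 scale (SE 0.12, edgeR adjusted p = 0.0202). This call was lost without repopulation 5 (edgeR adjusted p = 0.0501) and without control 1 and control 5 (-0.25, 0.112), the controls with the highest Zbtb16. The changes of -0.11 in depletion against control and -0.29 in repopulation against depletion were not called (edgeR adjusted p = 0.587 and 0.119).

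Nfkbia (chr12:55489410-55492647, minus strand) encodes I kappa B alpha, which keeps NF-kappa B out of the nucleus. Its values were 16.8, 13.1, 17.1, 17.3 and 20.8 CPM in control, 12.4, 14.7, 11.8, 12.9 and 16.9 in depletion and 15, 14.9, 13.1, 16.7 and 14 in repopulation. Groups overlapped in all 3 comparisons, with 3 depletion mice below the lowest control mouse. The mean of 17.0 ± 2.71 CPM in control compared with 13.7 ± 2.08 in depletion and 14.7 ± 1.37 in repopulation (SD, n = 5). The change of -0.31 (SE 0.11) in depletion was not called (edgeR adjusted p = 0.0634), but was called by DESeq2 (adjusted p = 0.034), with no count filter (edgeR adjusted p = 0.000304), without control 2 (0.00742) and without depletion 5 (0.015). Repopulation against control gave -0.20 (SE 0.11, edgeR adjusted p = 0.178), with a range of -0.28 to -0.10 over the alternatives, and was called without control 2 (0.0271) and with no count filter (0.0235).

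Cdkn1a (chr17:29090976-29100727, plus strand) encodes p21, an inhibitor of cyclin-dependent kinases. Mice 1 to 5 had 21.6, 18.3, 21.3, 20.1 and 25 CPM in control, 18.2, 15, 15.2, 16.2 and 16.9 in depletion and 15.9, 16.1, 15.2, 18.5 and 14.4 in repopulation. Depletion and control did not overlap, by a margin of 18.2 to 18.3 CPM, and in repopulation only mouse 4, at 18.5, entered the control range. It fell from 21.3 ± 2.46 CPM to 16.3 ± 1.32 in depletion (-0.39, SE 0.08, edgeR adjusted p = 0.00094), 76.5% of control. In repopulation it was at 16.0 ± 1.53 CPM, lower than control (-0.41, SE 0.08, edgeR adjusted p = 0.000258). Between depletion and repopulation the difference was -0.02 (SE 0.08, edgeR adjusted p = 0.898). Both falls against control were called in all 25 alternatives run, with adjusted p of at most 0.0209 and 0.00557. Part of the gene lies across from AC167363.2 on the other strand, and the use of strand in counting is not given in the sources used here, so that reads of the pair cannot be told apart.

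Map3k6 (chr4:133240818-133252929, plus strand) encodes ASK2, a stress-activated kinase of the MAP kinase cascade. It was the member with the lowest level, at 5.78, 4.72, 5.35, 5.15 and 7.21 CPM in control, 4.66, 3.70, 4.32, 5.63 and 5.46 in depletion and 4.69, 4.24, 3.04, 3.94 and 2.78 in repopulation. Repopulation mice all stood below control mice, with 4.69 as the highest of the first and 4.72 as the lowest of the second. Its mean fell from 5.64 ± 0.956 CPM in control to 3.74 ± 0.804 in repopulation (-0.59, SE 0.14, edgeR adjusted p = 0.00314), to 66.3% of control. Depletion lay between, at 4.76 ± 0.803 CPM, and differed by a call neither from control (-0.25, SE 0.14, edgeR adjusted p = 0.259) nor from repopulation (-0.34, SE 0.15, edgeR adjusted p = 0.123). With no count filter the fall from depletion to repopulation was called (edgeR adjusted p = 0.047), and the change in depletion against control was -0.11 with length and GC trends taken out and -0.15 without control 5.

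Sgk1 (chr10:21882184-21999903, plus strand), the gene with the palindrome printed above, encodes a kinase that acts on ion channels and transporters and is a standard corticosteroid target. Its values were 66.9, 58.2, 66.0, 65.2 and 91.6 CPM in control, 44.9, 61.5, 53.3, 59.5 and 77.9 in depletion and 63.8, 63.1, 46.2, 59.7 and 48.1 in repopulation. Control 5 and depletion 5 stood above the rest of their groups, and the groups overlapped in all 3 comparisons. Means were 69.6 ± 12.8, 59.4 ± 12.2 and 56.2 ± 8.43 CPM (SD, n = 5). Neither the change of -0.23 (SE 0.16) in depletion nor that of -0.31 (SE 0.16) in repopulation against control was called (edgeR adjusted p = 0.388 and 0.182), nor was either called in any of the 25 alternatives. Without control 5 they were -0.11 and -0.19, and the depletion change was -0.15 without depletion 1 and -0.34 without depletion 5.

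Fkbp5 (chr17:28399094-28517527, minus strand) encodes FKBP51, an HSP90 co-chaperone that lowers the receptor's affinity for hormone and closes a short feedback loop. It was at 48.7, 36.6, 43.7, 36.5 and 45.9 CPM in control, 36.2, 42.8, 36.2, 40.7 and 40.3 in depletion and 38.7, 44.1, 36.7, 38.6 and 37.7 in repopulation. All groups overlapped, and no repopulation mouse was below the control range. The means were 42.3 ± 5.51, 39.2 ± 2.94 and 39.2 ± 2.86 CPM (SD, n = 5), with changes of -0.11 (SE 0.08) in depletion and -0.11 (SE 0.08) in repopulation against control (edgeR adjusted p = 0.378 and 0.303). Fkbp5, a common readout of glucocorticoid exposure, was called in none of the 25 alternatives of any comparison. It overlaps 4 annotated genes, AC154912.1 and Gm22146 on the other strand and AC154912.3 and AC154912.5 on its own, and their reads could be split from it or added to it.

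Nr3c1, on chromosome 18, encodes the receptor. Its values were 124, 142, 126, 133 and 134 CPM in control, 152, 125, 155, 145 and 130 in depletion and 148, 143, 146, 141 and 140 in repopulation. In all, 3 depletion mice and 3 repopulation mice were above every control mouse, and both groups overlapped control. Its mean of 132 ± 7.14 CPM in control compared with 141 ± 13 in depletion and 143 ± 3.57 in repopulation (SD, n = 5). Changes were 0.10 (SE 0.05, edgeR adjusted p = 0.167) and 0.12 (SE 0.05, edgeR adjusted p = 0.0678) against control, and neither was called. The second was called in 6 of 25 alternatives, among them upper quartile scaling (edgeR adjusted p = 0.0445), and shrank to 0.01 (edgeR adjusted p = 0.899) with gene length and GC trends taken out.

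**Figure D2:**
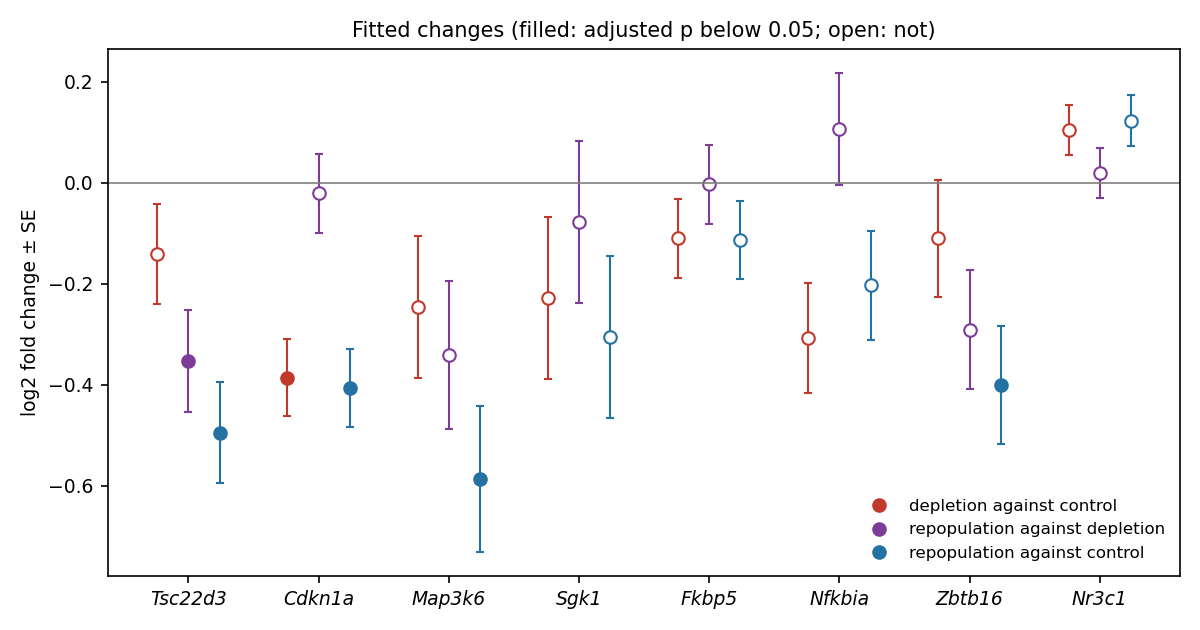
Fitted log2 fold changes (y axis) of the 8 members in the 3 comparisons, with bars for ± SE of the edgeR fit over 15 libraries; filled symbols passed an adjusted p of 0.05. The 6 filled symbols are all below 0, from -0.35 for Tsc22d3 in repopulation against depletion to -0.59 for Map3k6 in repopulation against control, and Nr3c1 is the member with all 3 changes above 0.

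The machinery around the receptor was followed in 12 genes, of which Hsd11b2 was too low to test. In depletion 3 of 11 rose and 0 fell (0 also by DESeq2, and 2 at an unadjusted p below 0.05 in edgeR). From depletion to repopulation 1 rose and 4 fell (5 fell by DESeq2), with a median log2 change of -0.11, and in repopulation against control 3 rose and 3 fell. Of all tested genes 8.19% rose and 8.35% fell in depletion, and 7.61% and 8.98% from depletion to repopulation. In repopulation against control the shares were 13.9% and 15.2%. Fkbp4 encodes FKBP52, the co-chaperone that opposes FKBP51, and was lower in repopulation (114 ± 11.1 to 88.1 ± 1.53 CPM, -0.37, edgeR adjusted p = 4.52e-05). Ptges3, which encodes the p23 co-chaperone, was lower as well (-0.34, edgeR adjusted p = 8.05e-05). Hsd11b1, whose enzyme regenerates active hormone inside cells, was the other lower gene (-0.36, edgeR adjusted p = 0.00294). The coregulator genes Ncoa2 (0.24, edgeR adjusted p = 8.08e-05), Ncor1 (0.17, 0.000237) and Ncoa1 (0.15, 0.00052), were higher. Hsd11b1, Ncor1 and Ncoa1 are named after their values were seen.

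The list of 26 other genes known to respond to glucocorticoids, also chosen with earlier results known, gave 0 higher and 5 lower in depletion against control. It gave 0 higher and 5 lower in repopulation against depletion, and 0 higher and 9 lower in repopulation against control. Of all tested genes 8.35%, 8.98% and 15.2% were lower in these comparisons, and 8.19%, 7.61% and 13.9% were higher. By DESeq2 the lower counts were 5, 5 and 9 and the higher counts 1, 0 and 0, and at an unadjusted p below 0.05 the higher counts were 2, 1 and 0. Their median log2 changes were -0.04, -0.10 and -0.17. Their summed level was 2390 to 2740 CPM in control, 2340 to 2530 in depletion and 2020 to 2240 in repopulation, where every mouse was below every control and depletion mouse. The summed level of the p53 targets described below separated in the same way, at 549 to 597, 536 to 564 and 509 to 530 CPM. The share of all genes that separate so was not counted, and the separation is not read as particular to this list.

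Glul, which encodes the glutamine synthetase of astrocytes, makes up most of that sum and fell in repopulation from 1460 ± 78.6 to 1180 ± 56.0 CPM (-0.31, SE 0.04, edgeR adjusted p = 1.28e-05). Metallothionein genes Mt1 and Mt2, whose proteins bind zinc and copper, fell from depletion to repopulation by 0.54 and 0.59 (edgeR adjusted p = 4.91e-07 and 0.00375). Mt1 was at 108 ± 7.47, 121 ± 10.5 and 83.1 ± 4.72 CPM, so that its repopulation mean was below control as well (-0.38, edgeR adjusted p = 4.5e-05). Gpd1, a glycerol phosphate dehydrogenase gene, was lower than control in both treated groups (-0.14, edgeR adjusted p = 0.00867, and -0.18, 0.000387). The others that fell in repopulation against control, named after their values were seen, were Mt2, Gjb6, Errfi1, Sult1a1, Tgm2 and Cebpd, by 0.16 to 0.73. In depletion the clock gene Per1, also a direct glucocorticoid target, fell by 0.49 (edgeR adjusted p = 0.016), and Txnip, Tgm2 and Errfi1 fell too.

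The other 17 genes of the list were not called in that comparison. Klf9, a transcription factor gene that glucocorticoids induce in brain, was at 224 ± 19.5, 224 ± 15 and 226 ± 9.84 CPM, with a change of 0.01 (SE 0.05) in repopulation against control (edgeR adjusted p = 0.888). Pdk4 and Plin4, metabolic targets, had changes of -0.01 (SE 0.09) and 0.10 (SE 0.35) in that comparison (edgeR adjusted p = 0.962 and 0.871). Klf9 and Plin4 were the 2 genes of the 26 with a change above 0. Klf9, Pdk4 and Plin4 are named after their values were seen. These counts moved with the libraries and the scaling. Without control 1 and control 5 the lower genes were 1 in depletion, 7 between depletion and repopulation and 4 in repopulation against control, and with length and GC trends taken out they were 0, 9 and 6. Without repopulation 5 alone, or control 1 alone, the last count was 5. Lower calls over all genes moved too, from 1533, 1649 and 2797 of 18369 as reported. They were 1012, 1817 and 2128 of 18837 without control 1 and control 5, and 866, 3491 and 2960 of 18369 with length and GC trends taken out. Without repopulation 5 or control 1 the last was 2476 or 2500. These moves are therefore not read as particular to the list.

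**Figure D3:**
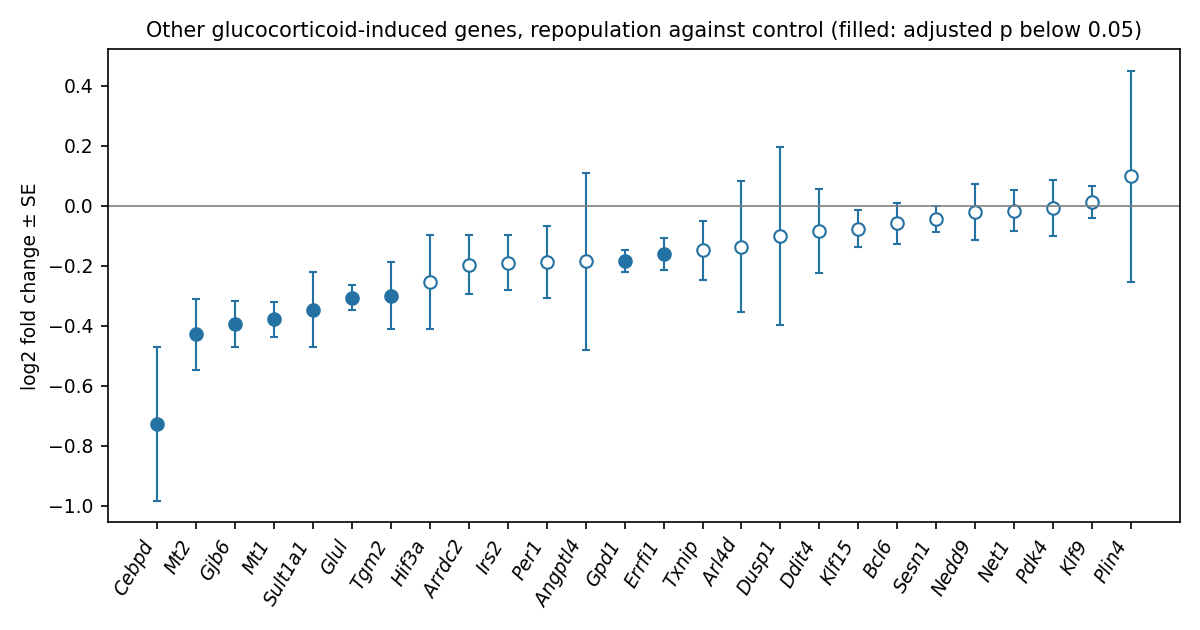
Log2 fold change in repopulation against control (y axis) of 26 further glucocorticoid-induced genes, ordered by size, with ± SE of the edgeR fit; filled symbols passed an adjusted p of 0.05. The 9 filled symbols lie between -0.16 for Errfi1 and -0.73 for Cebpd and 24 of the 26 values are below 0. Of all tested genes 15.2% were called lower in this comparison.

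Target lists of the other factors that act on 2 of the members were read beside them. For both lists, 8.35% of all tested genes fell and 8.19% rose in depletion, and 8.98% and 7.61% from depletion to repopulation. In repopulation against control the shares were 15.2% and 13.9%. Counts near these shares are not read as results about a list. Of 12 NF-kappa B genes without Nfkbia, 3 fell and 0 rose in depletion (0 also by DESeq2 and at an unadjusted p below 0.05 in edgeR), 3 rose from depletion to repopulation and 2 were lower in repopulation against control. Icam1, an adhesion gene of endothelium and microglia, was at 3.29, 1.32 and 2.11 CPM in the 3 groups (-1.34 in depletion, edgeR adjusted p = 5.2e-05). Rela fell in depletion by 0.18 (edgeR adjusted p = 0.0152). Nfkb1 had a change of -0.14 in depletion (edgeR adjusted p = 0.112) and rose from depletion to repopulation by 0.22 (0.00904).

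Of 12 p53 targets without Cdkn1a, 1 fell in depletion, 2 fell from depletion to repopulation and 5 fell in repopulation against control, and 0 rose in each comparison (0 also by DESeq2, and 1, 0 and 1 at an unadjusted p below 0.05 in edgeR). Phlda3, an inhibitor of AKT signalling, fell in repopulation by 0.44 (edgeR adjusted p = 2.26e-05), the cyclin G gene Ccng1 by 0.29 (0.00557) and the death gene Bax by 0.19 (0.00746). In depletion their changes were -0.10, 0.06 and -0.12 (edgeR adjusted p = 0.317, 0.659 and 0.111). The p53 target that fell in depletion is therefore not among these named genes. From depletion to repopulation, Phlda3 fell by 0.34 (edgeR adjusted p = 0.000801) and Ccng1 by 0.35 (0.00309). Phlda3, Ccng1 and Bax were named for their small adjusted p and do not stand for the list. The part of p53 in the changes of Cdkn1a was not tested.

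Hour of day and neuronal activity also act on these genes, and their own markers are given for that reason. Of 12 clock genes, 1 rose and 2 fell in depletion and in repopulation against control, and from depletion to repopulation edgeR called 0 (4 at an unadjusted p below 0.05) and DESeq2 1. Of all tested genes 8.19% rose and 8.35% fell in depletion, and 13.9% and 15.2% in repopulation against control. Clock rose by 0.13 and 0.15 (edgeR adjusted p = 0.0131 and 0.00284), and Cry1 fell by 0.26 in repopulation (0.0105). Per1, named above as a glucocorticoid target, belongs to this list too. It fell from 125 to 89.1 CPM in depletion (-0.49, edgeR adjusted p = 0.016) and was not called in repopulation against control (-0.19, 0.283). Of 10 immediate early genes, Egr1 alone fell in depletion (405 to 302 CPM, -0.42, edgeR adjusted p = 0.0492). In repopulation against control edgeR called 0 of them and DESeq2 called 2 lower. All 10 changes were below 0 in each comparison with control, where the median change over all genes was -0.002 and 0.007. Both comparisons share the control mice, so that they are not independent. Their summed level was 602 to 1230 CPM in control, 523 to 881 in depletion and 609 to 1080 in repopulation. Control 5, the highest of the controls for 6 of the 8 members, had the highest sum. Their part in the members' changes was not tested.

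Cell type markers moved between the groups at the same time. Of all tested genes, 8.35% fell and 8.19% rose in depletion, and 15.2% and 13.9% in repopulation against control. The shares from depletion to repopulation were 8.98% and 7.61%. In depletion 12 of 12 microglial, 6 of 6 oligodendrocyte precursor, 4 of 10 endothelial and 1 of 8 pericyte and smooth muscle genes fell, and 6 of 8 oligodendrocyte genes and the astrocyte gene Gfap rose. Of 8 neuronal genes 1 fell in depletion, Slc17a7 (-0.13, edgeR adjusted p = 0.0186). In repopulation against control 2 of 8 astrocyte genes fell, Aldoc by 0.30 and Gja1 by 0.18 (edgeR adjusted p = 3.9e-06 and 0.000399), beside 2 lower oligodendrocyte genes, 2 higher and 2 lower neuronal genes, 3 higher and 2 lower endothelial genes, 3 higher and 1 lower microglial genes, 1 higher and 2 lower pericyte and smooth muscle genes and 1 higher oligodendrocyte precursor gene. From depletion to repopulation, where Tsc22d3 fell, 8 of 8 oligodendrocyte and 4 of 8 astrocyte genes fell, and 12 of 12 microglial, 6 of 10 endothelial, 5 of 6 oligodendrocyte precursor and 3 of 8 pericyte and smooth muscle genes rose. Astrocyte markers summed to 4330 to 4600 CPM in control, 4290 to 4670 in depletion and 4240 to 4350 in repopulation. The part of these markers in the members' changes was not tested, and in bulk tissue fewer cells of a type and less RNA per cell cannot be told apart.

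Within groups, the 7 induced genes varied together from mouse to mouse, to differing degrees. Each gene's log2 CPM was expressed as a deviation from its group mean over the 15 libraries, so that the treatment itself was taken out, and correlations are descriptions across libraries that share each library's depth and makeup. Sgk1 and Nfkbia had the highest r of any pair, 0.85 (Spearman rho 0.81), and 0.70 without depletion 5 and control 5. Among 13430 genes ranked for likeness to Sgk1, Nfkbia was at rank 5, and Sgk1 was at rank 7 for Nfkbia. Tsc22d3 and Cdkn1a followed at 0.80 (rho 0.77), with 0.75 without control 2 and repopulation 3, the farthest for Tsc22d3, and 0.62 without control 5 and repopulation 4, the farthest for Cdkn1a, then Tsc22d3 and Map3k6 at 0.73 and Map3k6 and Sgk1 at 0.71.

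The median r with the other members was 0.63 for Tsc22d3, 0.61 for Cdkn1a, 0.59 for Sgk1, 0.56 for Nfkbia, 0.53 for Map3k6, 0.43 for Fkbp5 and 0.37 for Zbtb16, whereas medians over all ranked genes lay between -0.01 and 0.02. Over 15 libraries many genes reach the lower of these values. Map3k6, at 0.43 to Fkbp5, was at rank 1718 of 13430 for Fkbp5, and Nr3c1, at 0.37 to Zbtb16, at rank 2433. The first 134 ranks, 1% of genes, held 3 of the 7 other members for Tsc22d3 and Map3k6. They held 2 for Cdkn1a, Sgk1 and Nfkbia and 0 for Fkbp5, Zbtb16 and Nr3c1. Nr3c1 had a median of -0.14, with -0.63 to both Fkbp5 and Nfkbia and -0.42 to Sgk1. Zbtb16 stood apart from Sgk1, Nfkbia and Fkbp5, with r of 0.15 to 0.16, and nearer to Cdkn1a at 0.61, which was 0.25 without control 5 and depletion 1.

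**Figure D4:**
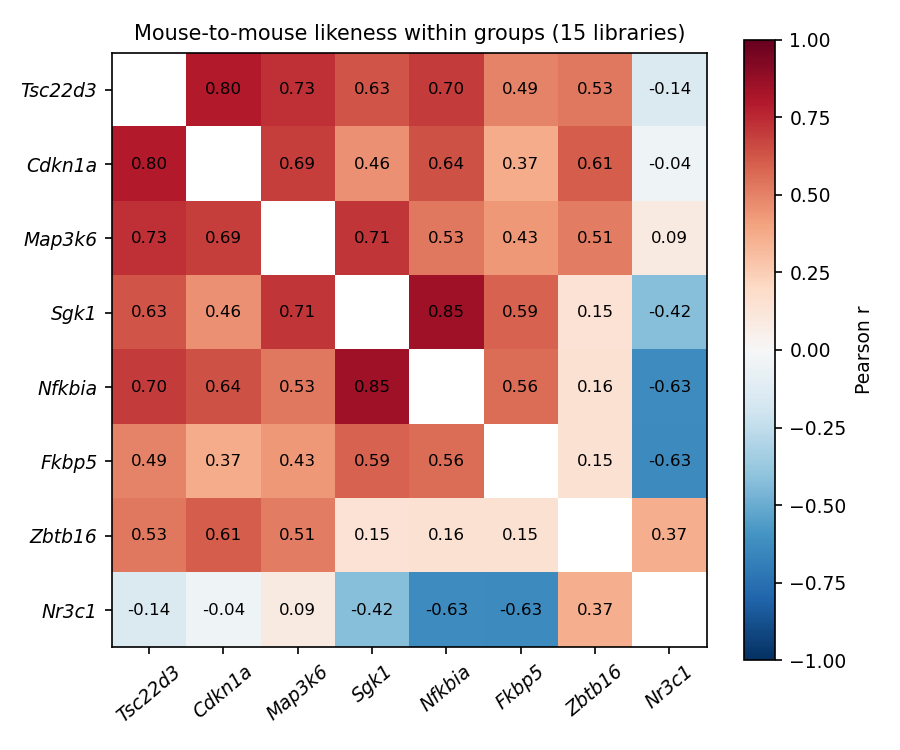
Pearson r between the within-group deviations of each pair of members over 15 libraries (colour scale from -1 to 1). Values between the 7 induced genes are all above 0, from 0.15 to 0.85, and the row of Nr3c1 runs from -0.63 to 0.37.

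Libraries differed in how far the members deviated together. In control 5 all 8 members were above their group means, with a mean deviation of the 7 induced genes of 0.29 on the log2 scale, and in repopulation 5 none were (-0.17). Control 2 was the lowest library (-0.24, 1 of 8 above). In the other 12 libraries 2 to 7 members were above their group means, with mean deviations of the induced genes from -0.15 to 0.13. The summed level of immediate early genes had r of 0.70 with Nfkbia, 0.61 with Cdkn1a, 0.61 with Sgk1 and 0.53 with Tsc22d3, but 0.00 with Fkbp5 and 0.01 with Zbtb16. That of the other glucocorticoid-induced genes had r of 0.84 with Cdkn1a, 0.71 with Tsc22d3, 0.59 with Zbtb16, 0.57 with Map3k6, 0.51 with Fkbp5, 0.47 with Nfkbia, 0.39 with Sgk1 and 0.01 with Nr3c1. The sum of p53 targets had 0.79 with Zbtb16, 0.70 with Map3k6, 0.69 with Tsc22d3 and 0.67 with Cdkn1a, and 0.09 to 0.43 with the other members. Astrocyte markers had 0.69 with Zbtb16 and neuronal markers 0.70 with Nr3c1 and -0.70 with Fkbp5, all over n = 15 libraries. Microglial markers had -0.67 with Map3k6 and -0.46 with Cdkn1a, and -0.43 to 0.18 with the other members. Endothelial markers had -0.56 with Nfkbia and 0.52 with Nr3c1, and -0.44 to 0.09 with the other members. These are examples, and not every cell type list is given.

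The genes most like each member, by the same measure, were in none of the gene lists used here. For Tsc22d3 they were Chst10 (r 0.92), Ccdc117 (0.89) and Cdc37l1 (0.86), and for Cdkn1a Cavin2 (0.90) and Klhdc7a (0.86). For Map3k6 they were Trim65 (0.89), Stac3 (0.88) and Gypc (0.85). Ankrd54 was among the first 3 of both Nfkbia (0.94, with Tiparp at 0.89 and Cwc25 at 0.88) and Sgk1 (0.88, with Fzd4 at 0.89 and Pnpla2 at 0.87). Fkbp5 was closest to Znrd1 (0.91), Igfbp3 (0.89) and Rdm1 (0.86), Zbtb16 to Gatsl2 (0.96), G3bp1 (0.90) and Papola (0.89), and Nr3c1 to Mtus2 (0.96), Cds1 (0.94) and Pou6f1 (0.94). Without the 2 libraries farthest from each member's median the r values of these named genes were 0.775 to 0.936.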

How the data were processed

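Bulk RNA was sequenced from the cortex of 15 mice, 5 per group. The authors deposited raw read counts per gene as whole numbers. The submitters' processing notes name the mm10 build and, as tools, STAR, DESeq2, DESeq, FastQC and MultiQC, without roles; the counting tool, its strand setting and the annotation are not stated there.

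The test was run in edgeR 4.0.16 under R 4.3.3 (filterByExpr, TMM, robust quasi-likelihood F test over all 15 libraries, Benjamini-Hochberg over 18369 genes, threshold 0.05). SE is the size of the log2 change over the square root of F. Depth per library, 23413551 to 48617851 counts, limits mainly Map3k6. Each library came from its own mouse, and no replicate pair was identical. Likeness used log2 CPM with a prior count of 2 in genes of mean CPM of at least 1. Gene positions and lengths came from GENCODE M21 on GRCm38 and promoters from RefSeq. Alternatives were other scalings, filters, DESeq2 1.42.0, 2 groups only, a replicate block, length and GC trends taken out (97.8% of genes had values), thinning to 23413551 counts, and each library left out. Scripts were tested on simulated data. Named genes were the 8 members, up to 3 per other list with the smallest adjusted p, and 3 most alike genes per member, of which 1 is not reported here. Members and lists were chosen with earlier results of these data known.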

Additional observations from a re-analysis of the deposited data

Results flagged for a closer look

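Values of the 8 members were examined for a single mouse far from the rest of its group, in 24 groups of 5 mice. Sgk1 in control 5, at 91.6 CPM, stood apart from the nearest control mouse at 66.9 CPM, a gap of 0.737 of the group's range (limit 0.71). Fkbp5 in repopulation 2, at 44.1 CPM, stood apart from the nearest repopulation mouse at 38.7 CPM, a gap of 0.734 of the range. Chance gives about 1 such value in 20 groups, so that 2 of 24 is close to that rate. Sgk1 was called in no comparison with or without control 5, and neither was Fkbp5 with or without repopulation 2.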

How the results depend on the processing

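The falls of Tsc22d3, Cdkn1a and Map3k6 in repopulation against control and of Cdkn1a in depletion kept their direction and their call in all 25 alternatives run. Members lower in depletion were 2 instead of 1 by DESeq2, with no count filter and with the replicate block, Nfkbia being the addition, and 1 to 2 with single libraries left out; members higher were 0 to 1. Members lower from depletion to repopulation were 3 with length and GC trends taken out (Tsc22d3, Map3k6 and Zbtb16). That count was 2 without control 1 and control 5 and 0 to 2 with single libraries left out. With no count filter it was 1 as reported, but the gene was Map3k6 in place of Tsc22d3. Leaving out control 1 and control 5 was chosen after seeing the data. Control 1 was the deepest library and control 5 the highest in immediate early genes. Both were also the controls with the highest mean deviation of the induced genes (0.071 and 0.293, against -0.242 to -0.055 in the other controls). Leaving them out therefore lowers the control level of these genes, and smaller falls against control follow from that choice. Members higher in repopulation against control were 1 instead of 0 with upper quartile scaling, with no filter and with only the 2 groups, Nr3c1 each time, and 0 to 1 with single libraries left out; members lower were 3 to 5, and 3 without control 1 and control 5. The other induced genes, a result added after seeing the data, numbered 3 to 5 lower in depletion, 4 to 6 lower from depletion to repopulation and 5 to 10 lower in repopulation against control with single libraries left out; length and GC trends gave 0 and 9 for the first 2, and leaving out control 1 and control 5 gave 1 and 4 for the first and the last.

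Changes of sign were limited to changes that were not called. From depletion to repopulation, with single libraries left out, Cdkn1a ranged from -0.078 to 0.021, Sgk1 from -0.163 to 0.034, Fkbp5 from -0.051 to 0.027 and Nr3c1 from -0.025 to 0.053; Fkbp5 was 0.015 with upper quartile scaling and 0.01 with thinned counts, and Nr3c1 -0.039 with length and GC trends out. Without control 1 and control 5 the changes in depletion were 0 for Tsc22d3, 0.009 for Fkbp5 and 0.049 for Zbtb16, and 0.003 for Fkbp5 in repopulation against control. The cause was not tested.

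Scaling moved the balance of calls over all genes. Higher and lower genes were 1505 and 1533 in depletion (1798 and 866 with length and GC trends out), 1398 and 1649 from depletion to repopulation (777 and 3491; 1713 and 1280 with upper quartile scaling) and 2548 and 2797 in repopulation against control (1421 and 2960). Without control 1 and control 5 these counts were 1006 and 1012, 1413 and 1817, and 1753 and 2128 in the same order. Mouse numbers are shared by the groups, and the labels do not say whether they pair the mice. Deviations of same-numbered libraries had r of -0.13 to 0.10 in 15 pairs, and 1 of 15 libraries was closest to its own number. These values show no pairing but cannot exclude a shared litter, cage or handling. The replicate block changed no other count of members by over 1.5 times.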
